A study of Mus musculus with 30 samples.

Results

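Cathepsins are proteases of the lysosome, and their transcripts were followed in 2 mouse cancer cell lines exposed in culture to interferons or to an agonist of the DNA-sensing adaptor STING. The 10 genes Ctsa, Ctsb, Ctsc, Ctsd, Ctsf, Ctsh, Ctsk, Ctsl, Ctss and Ctsz were taken by name from 49315 counted genes, and all 10 passed the minimum of 10 reads over 24 libraries that left 21138 genes for testing. Bulk RNA sequencing had been done on 6694c2, a pancreatic ductal adenocarcinoma (PDAC) line derived from a mouse with a pancreas-specific Pdx-cre driver, a floxed p53 allele and a YFP reporter, and on B16F10, a melanoma line of C57BL/6 origin. Over 24 h the cells of each line were given STING agonist (225 μg/mL), type I interferon IFNβ (1000 U/mL), the type II interferon IFNγ (100 ng/mL) or vehicle, which made 8 groups of 3 libraries. The labels give the same C57BL/6 background to both lines and name the source as tumor, although the cells had been treated in culture, and each kind of tumour is represented by 1 line. What the vehicle contained, and whether the 3 libraries of a group came from separate cultures, is not given in the sources used here.

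Most cathepsins are cysteine proteases (here Ctsb, Ctsc, Ctsf, Ctsh, Ctsk, Ctsl, Ctss and Ctsz), while Ctsd is an aspartic protease and Ctsa a serine carboxypeptidase. They are made as inactive precursors, carried to the lysosome largely by mannose 6-phosphate receptors, and activated there at acid pH. Many of their genes are under the control of TFEB and its relatives, among them the melanocyte factor MITF, which bind an E-box in lysosomal promoters. In antigen-presenting cells cathepsins also trim the invariant chain from MHC class II molecules, a task in which Ctss and Ctsl are best known, and cystatins and some serpins inhibit them.

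Library totals ranged from 15543131 to 32266795 counted reads, and replicate libraries correlated at 0.997 to 0.9986 (Pearson's r across genes, which are not independent replicates). With vehicle, 11 melanocyte markers summed to 19676 to 19886 counts scaled to a common library total (CPM) in B16F10 and to 92.4 to 95.6 CPM in 6694c2, and 12 epithelial markers to 13977 to 14955 CPM in 6694c2 and 15.3 to 21.4 CPM in B16F10. Transcripts specific to one line were present at a low level in the other. Over 196 genes specific to 6694c2, the median level in B16F10 was 0.211% of that in 6694c2 with vehicle, 0.312% with IFNγ, 0.372% with IFNβ and 0.896% with STING agonist. Over 115 genes specific to B16F10, the median in 6694c2 was 0.601%, 0.645%, 0.313% and 0.259%, in the same order of treatments. Of 10 interferon-response genes, 9 rose with IFNγ and 10 with IFNβ in each line, whereas STING agonist raised 8 in B16F10 and 2 in 6694c2, where it lowered 1.

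Promoters were found for 8 of the 10 genes and not for Ctsb and Ctsh, which were therefore not searched. The 9 promoters (Ctsa has a pair of starts) were among 32851 RefSeq promoters of GRCm38.p6. Each ran from 250 bases before to 50 after a transcript start. They were searched on both strands for letters that interferon-activated factors and TFEB or MITF are known to bind. The gamma-activated site TTCNNNGAA was in 8.30% of all promoters and in that of Ctsc, the interferon-stimulated response element, searched as GAAA, any 2 bases and GAAA, in 3.44% and in that of Ctss. The E-box CACGTG was in 7.15% of all promoters and in 4 of the 9 cathepsin promoters (Ctsa, Ctsd, Ctsf and Ctsl), and its longer form GTCACGTG, which contains it, in 2.25% and in those of Ctsa and Ctsd. The following 4 promoters are shown because they hold the gamma-activated site, the response element or the longer form of the E-box, 5′ to 3′ on the gene's own strand, with the matching letters in capitals (the response element in Ctss, the gamma-activated site in Ctsc and the E-boxes in Ctsa and Ctsd).
Ctss, chr3:95526536-95526835, plus strand: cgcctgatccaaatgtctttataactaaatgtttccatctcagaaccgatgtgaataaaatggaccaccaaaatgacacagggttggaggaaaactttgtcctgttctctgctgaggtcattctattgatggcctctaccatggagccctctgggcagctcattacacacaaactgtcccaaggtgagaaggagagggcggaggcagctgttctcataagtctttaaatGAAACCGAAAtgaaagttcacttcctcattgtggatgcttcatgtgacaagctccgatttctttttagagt
Ctsc, chr7:88277835-88278134, plus strand: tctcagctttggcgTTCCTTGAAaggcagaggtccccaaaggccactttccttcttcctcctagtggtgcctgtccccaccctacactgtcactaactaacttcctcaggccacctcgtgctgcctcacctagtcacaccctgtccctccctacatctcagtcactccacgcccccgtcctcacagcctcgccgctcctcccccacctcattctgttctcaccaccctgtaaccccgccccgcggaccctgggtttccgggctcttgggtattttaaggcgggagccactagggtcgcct
Ctsa, chr2:164833523-164833822, plus strand: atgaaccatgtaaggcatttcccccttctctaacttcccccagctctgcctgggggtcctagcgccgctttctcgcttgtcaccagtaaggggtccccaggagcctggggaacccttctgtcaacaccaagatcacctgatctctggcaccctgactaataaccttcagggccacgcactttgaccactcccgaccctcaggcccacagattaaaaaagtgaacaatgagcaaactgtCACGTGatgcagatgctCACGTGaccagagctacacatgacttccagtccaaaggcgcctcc
Ctsd, chr7:142387778-142388077, minus strand: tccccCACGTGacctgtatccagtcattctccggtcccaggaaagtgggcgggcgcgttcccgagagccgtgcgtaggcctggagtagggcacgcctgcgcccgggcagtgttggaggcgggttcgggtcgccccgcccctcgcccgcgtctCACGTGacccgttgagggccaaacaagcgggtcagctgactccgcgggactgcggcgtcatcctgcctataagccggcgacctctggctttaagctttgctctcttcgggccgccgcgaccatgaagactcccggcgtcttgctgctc
The match in Ctss began 21 bases and that in Ctsc 236 bases upstream of the start. The E-boxes of Ctsd began 245 and 98 bases upstream, and of those of Ctsa, in the promoter of its second start, one began 12 bases upstream and the other 6 bases into the transcript. A match describes the letters only.

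With vehicle the lines differed in the levels and the order of cathepsin transcripts, although Ctsb, Ctsd, Ctsl and Ctsz led in both. Per length of transcript, in RPKM (CPM per 1000 bases of exon, the scale used here to compare genes), B16F10 with vehicle held Ctsd at 419 ± 8.25 (SD, n = 3), Ctsz at 326 ± 1.31 and Ctsb at 266 ± 9.0, which placed them at percentiles 99.5, 99.3 and 99.0 of the tested genes. Ctsl at 69.6 ± 2.44 RPKM and Ctsa at 54.5 ± 1.08 RPKM came next, and then, after a wide gap, Ctsh (6.27 ± 0.233), Ctsf (2.54 ± 0.236), Ctsc (2.16 ± 0.0462), Ctss (0.81 ± 0.529) and Ctsk (0.0594 ± 0.0636). In 6694c2 the order began with Ctsl at 183 ± 12.7 RPKM, followed by Ctsd (84.7 ± 3.74), Ctsb (79.0 ± 1.80), Ctsz (51.1 ± 3.16), Ctsc (18.7 ± 0.871), Ctsh (16.4 ± 0.492), Ctsa (13.8 ± 0.0557) and Ctss (0.989 ± 0.154). Ctsf (0.0201 ± 0.0175) and Ctsk (0.0129 ± 0.0223) came last. Neighbours in either order did not overlap in their vehicle libraries, except Ctsf and Ctsk in 6694c2.

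**Figure D1:**
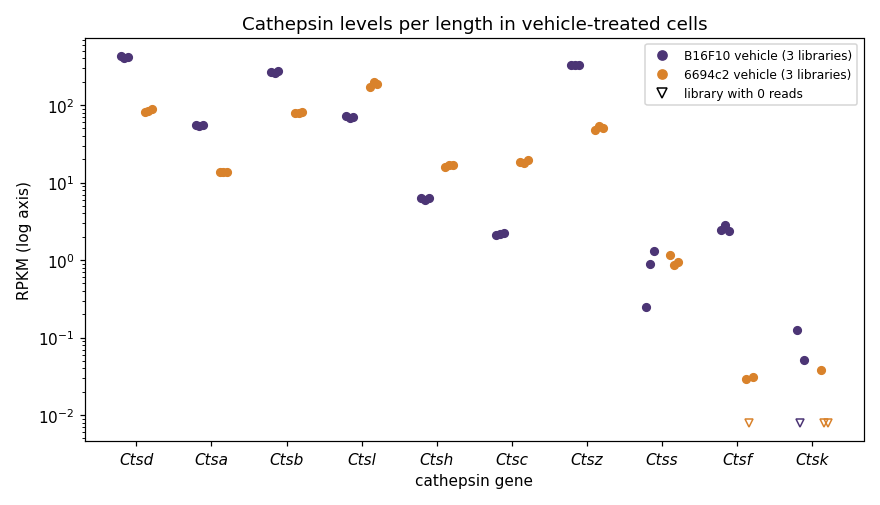
RPKM (log axis) of each cathepsin in the 3 vehicle libraries of B16F10 and of 6694c2, one point per library and open triangles for libraries with 0 reads. Ctsd, Ctsz and Ctsb lead in B16F10 at means of 419, 326 and 266 RPKM, and Ctsl leads in 6694c2 at 183 RPKM, while Ctss lies at means of 0.81 and 0.989 RPKM.

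Compared between the lines with vehicle, in TMM-scaled CPM, 3 cathepsins were higher in 6694c2, 5 were lower and 2 were not called (adjusted p under 0.05), where 58% of all tested genes were called, 28.7% higher and 29.3% lower. Of the 8 cysteine proteases 3 were higher and 3 lower, and the aspartic and the serine protease were both lower. Positions are on mm10, as the files give them. Ctsc, the dipeptidyl peptidase that activates granule serine proteases (chr7:88278085-88310888), was at 12.3, 12.5 and 12.9 CPM in B16F10 and 108, 104 and 114 CPM in 6694c2, a log2 difference of 3.11 ± 0.0866 (SE). Ctsl (chr13:64363214-64370306) differed by 1.40 ± 0.0648 and Ctsh, an aminopeptidase (chr9:90054152-90076089), by 1.39 ± 0.0806. Among the lower ones, Ctsz, a carboxypeptidase (chr2:174427493-174439039), was at 468, 472 and 470 CPM in B16F10 and at 69.0, 78.1 and 73.9 CPM in 6694c2, lower by a log2 difference of -2.67 ± 0.0684. Ctsd (chr7:142375911-142388038) differed by -2.31 ± 0.0624, Ctsa (chr2:164832873-164841032) by -1.99 ± 0.0597 and Ctsb (chr14:63122462-63145919) by -1.75 ± 0.0589. These 7 genes had adjusted p-values from 4.65e-31 to 8.53e-19, the 3 libraries of a line did not overlap those of the other for any of them, and no alternative setting changed these calls. Summed over the 10 genes, vehicle libraries held 3158 ± 61.1 CPM in B16F10 and 1258 ± 38.9 CPM in 6694c2. In bulk libraries fewer cells that express a gene cannot be told apart from less of its RNA in each cell.

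Ctsf, a cysteine protease that can also process the invariant chain (chr19:4855129-4860912), was the fifth of the lower genes and was counted almost wholly in B16F10. Its reads with vehicle numbered 101, 138 and 119 in B16F10 and 1, 0 and 1 in 6694c2, a depth-scaled ratio of 129 with a 95% counting interval of 35.5 to 1069. The 12 libraries of 6694c2 held 0 to 4 reads each. The 6694c2 vehicle mean of 0.0398 CPM stood beside 0.0301 CPM, the level of B16F10 times the 0.601% found for other transcripts specific to B16F10. With IFNγ the same pair of values was 0.0340 and 0.0323 CPM. With IFNβ and STING agonist it was 0.0753 and 0.0157 CPM and 0.0715 and 0.0129 CPM. These means rest on the 0 to 4 reads per library given above. In B16F10 the gene was called with no treatment, at 4.65 to 5.54 CPM with vehicle and 4.09 to 6.14 CPM with the treatments. Ctsk, the collagenase of osteoclasts (chr3:95499256-95509362), had 22 reads in all and 0 in 13 of the 24 libraries, and no library had more than 4. A count of 3 corresponds to 0.0998 to 0.184 CPM in these libraries, so its differences were not detectable at this depth and no fold is given. These intervals cover counting error only.

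In each line the interferons moved some cathepsins up and others down. Calls with a change above 2-fold numbered 0 of the 10 cathepsins in each comparison with vehicle, where such calls were also rare over all tested genes, at 3.82% with IFNγ, 3.05% with IFNβ and 0.837% with STING agonist in B16F10 and 3.09%, 3.34% and 0.166% in 6694c2. In B16F10, IFNγ raised 4 and lowered 1 of the 10 cathepsins, where 22.8% of all tested genes were called (12% higher, 10.8% lower). IFNβ raised 3 and lowered 1 (24% of all genes called, 12.7% higher and 11.2% lower), and STING agonist raised 2 (3.46% called, 1.93% higher and 1.53% lower). In 6694c2, IFNγ raised 2 and lowered 3 (13.5% called, 7.89% higher and 5.66% lower) and IFNβ raised 2 and lowered 1 (18.2% called, 10.4% higher and 7.86% lower). STING agonist gave 0 calls among the cathepsins of 6694c2 by edgeR, 0 by DESeq2 and 0 at an unadjusted p under 0.05, and 0.36% of all genes were called. The median log2 change of the 10 cathepsins lay between -0.03 and 0.14 in these 6 comparisons, beside medians of 0 to 0.02 over all tested genes.

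**Figure D2:**
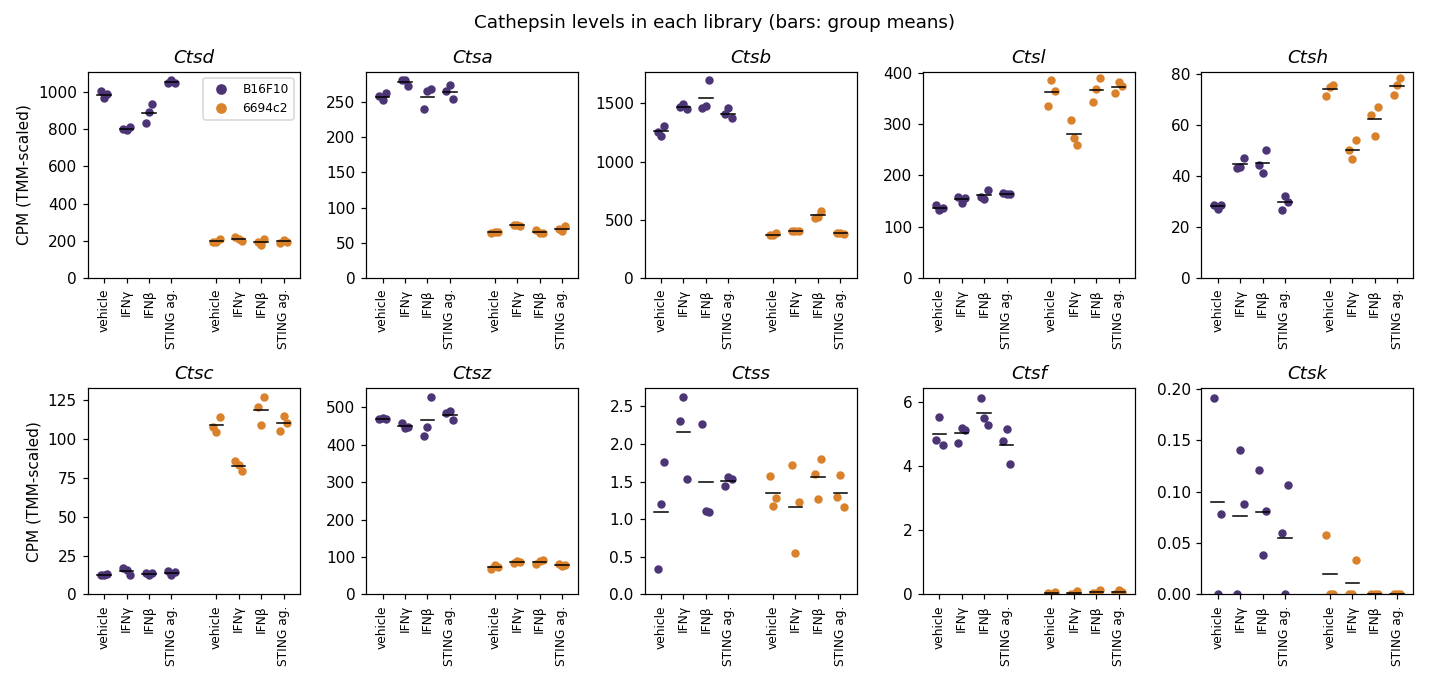
TMM-scaled CPM (linear axes from 0, a separate scale for each gene) of the 10 cathepsins in all 24 libraries, by line and treatment, with one point per library and a bar at each group mean. For Ctsb in 6694c2 the vehicle libraries sit at 369 to 384 CPM and the IFNβ libraries at 516 to 575 CPM, all below the 1223 to 1307 CPM of B16F10 with vehicle.

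The response to IFNγ differed between the lines for 5 of the 10 cathepsins by the test of the difference itself (9.47% of all genes called, 4.52% with a higher and 4.95% with a lower change in 6694c2), and the response to IFNβ for 1 (12.1% called, 6.16% higher and 5.9% lower). For STING agonist edgeR and DESeq2 each called 0, with 1 cathepsin (Ctsl) at an unadjusted p under 0.05 and 2.12% of all genes called. The lines also differed in how strongly the interferon-response genes moved, with 7 of 10 higher and 2 lower in the IFNγ response of 6694c2.

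**Figure D3:**
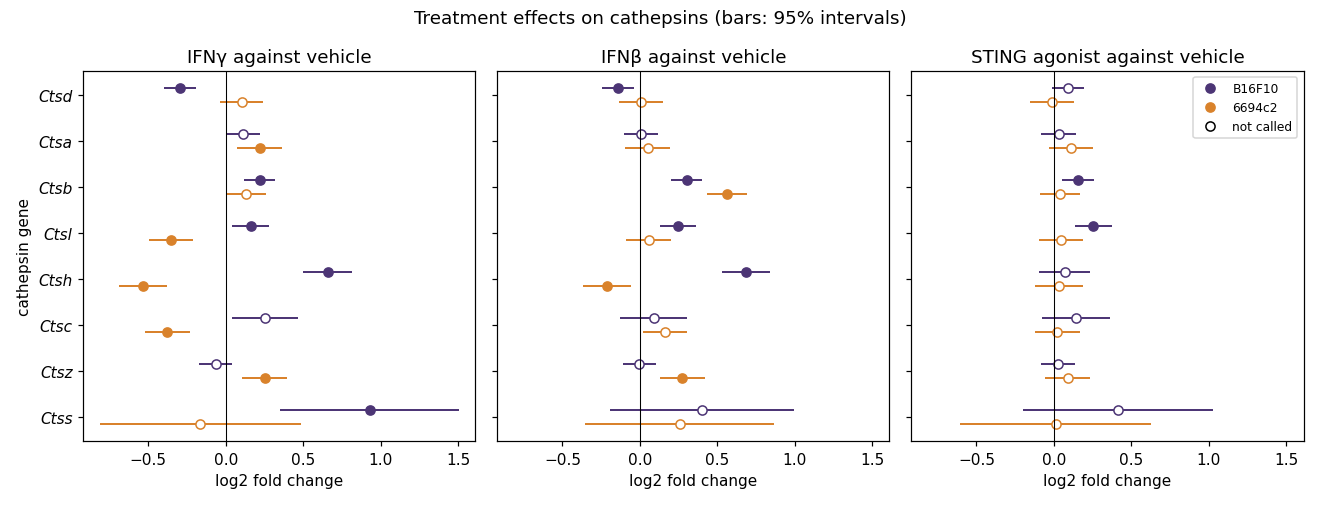
Log2 fold change against vehicle with IFNγ, IFNβ and STING agonist in each line for the 8 cathepsins other than Ctsf and Ctsk, with bars for 95% intervals, filled points where the adjusted p was under 0.05 and open points elsewhere. With IFNγ, Ctsh lies to the right of 0 in B16F10 (0.66) and to the left in 6694c2 (-0.53).

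Ctsh gave the clearest opposition between the lines. In B16F10 it was at 28.8, 27 and 28.8 CPM with vehicle, 43.2, 43.5 and 47.0 CPM with IFNγ, 44.2, 41.0 and 50.2 CPM with IFNβ and 26.9, 32.1 and 30.0 CPM with STING agonist. Every library of either interferon was above every vehicle library, and Ctsh rose by a log2 of 0.66 ± 0.0769 with IFNγ (adjusted p = 8.35e-15) and of 0.69 ± 0.0766 with IFNβ (adjusted p = 5.09e-16). In 6694c2 it was at 71.4, 74.8 and 75.5 CPM with vehicle, 50.3, 46.8 and 53.9 CPM with IFNγ, 64.0, 55.6 and 67.0 CPM with IFNβ and 71.9, 75.8 and 78.2 CPM with STING agonist. There every interferon library was below every vehicle library, the change being -0.53 ± 0.0772 with IFNγ (adjusted p = 7.33e-07) and -0.21 ± 0.0757 with IFNβ (adjusted p = 0.0436). The effects differed between the lines by a log2 of -1.21 ± 0.112 for IFNγ (adjusted p = 9.98e-11) and -0.92 ± 0.111 for IFNβ (adjusted p = 6.03e-08). The fall with IFNβ in 6694c2 was not called without vehicle replicate 2 (adjusted p = 0.118) or 3 (0.126), or without IFNβ replicate 1 (0.0546) or 2 (0.238). The rise in B16F10 of 16.4 CPM with IFNγ stood beside 0.230 CPM, the trace of 6694c2 transcripts in those libraries times the level of Ctsh in 6694c2. The same product was 0.156 CPM with vehicle.

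Ctso, a cathepsin outside the named set, rose in both lines and is shown for comparison. It was at 3.68, 3.69 and 3.79 CPM with vehicle in B16F10, with means of 21.2 ± 1.79 CPM (SD, n = 3) with IFNγ and 10.7 ± 0.966 CPM with IFNβ. In 6694c2 its means were 4.77 ± 1.07 CPM with vehicle, 17 ± 0.98 CPM with IFNγ and 10.8 ± 1.17 CPM with IFNβ. The log2 rises were 2.50 ± 0.127 and 1.53 ± 0.134 in B16F10 and 1.84 ± 0.141 and 1.22 ± 0.143 in 6694c2, each above the 0.93 of Ctss in B16F10 with IFNγ, which was the highest called change among the 10.

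**Figure D4:**
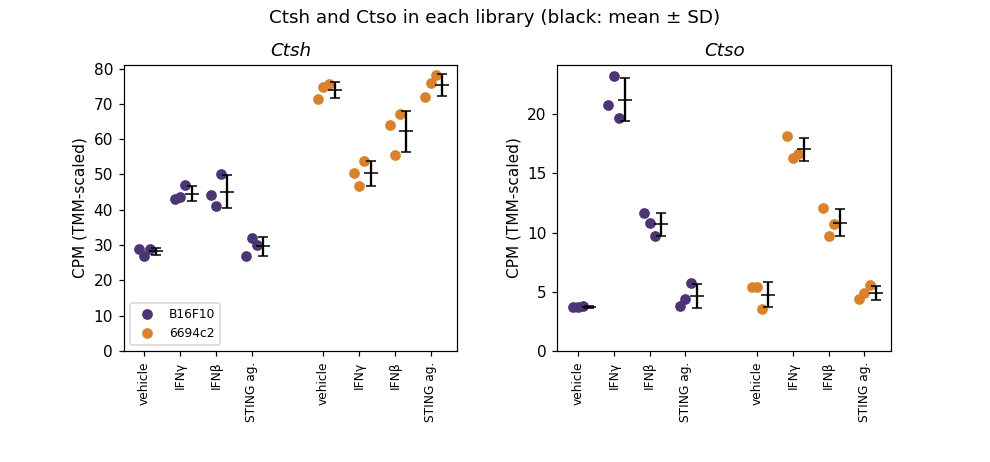
TMM-scaled CPM of Ctsh and Ctso in the vehicle, IFNγ, IFNβ and STING agonist libraries of each line, with one point per library and the mean ± SD in black. Ctsh goes up with the interferons in B16F10 and down in 6694c2, while Ctso goes up in both, to means of 21.2 and 17 CPM with IFNγ.

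Ctsl, the endopeptidase that leads in 6694c2, fell there with IFNγ and rose in B16F10 by a small amount that several alternatives did not call. In B16F10 it was at 142, 133 and 137 CPM with vehicle, 158, 147 and 156 CPM with IFNγ, 158, 155 and 172 CPM with IFNβ and 166, 164 and 163 CPM with STING agonist. All 9 treated libraries were above the vehicle libraries, with log2 rises of 0.16 ± 0.0565 (adjusted p = 0.024), 0.25 ± 0.0563 (adjusted p = 0.000151) and 0.26 ± 0.0567 (adjusted p = 0.00078). In 6694c2 the values were 335, 385 and 364 CPM with vehicle and 307, 273 and 260 CPM with IFNγ, a fall of -0.35 ± 0.0699 (adjusted p = 0.000192) with no overlap. With IFNβ (344, 368 and 389 CPM) and STING agonist (361, 382 and 374 CPM) the libraries of 6694c2 overlapped those with vehicle, and neither change was called. The IFNγ effects differed by a log2 of -0.53 ± 0.0903 between the lines (adjusted p = 4.17e-05). The rise in B16F10 with IFNγ was not called without vehicle replicate 2 (adjusted p = 0.13) or 3 (0.0687) or IFNγ replicate 1 (0.103) or 3 (0.102), nor when scaled by library size only (0.07) or in a fit of all 24 libraries (0.0731), whereas the rises with IFNβ and STING agonist kept their call under every alternative. With STING agonist the gain of 27.3 CPM over vehicle stood beside 3.24 CPM from the trace of 6694c2 transcripts. That trace came to 0.763 CPM with vehicle. Its exons overlap an antisense gene over 1742 bases and a pseudogene over 395 bases in the annotation, and whether the reads were assigned by strand is not stated.

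Ctsc fell with IFNγ in 6694c2, the line that expresses it strongly. The libraries there were at 108, 104 and 114 CPM with vehicle, 85.9, 83.3 and 79.3 CPM with IFNγ, 121, 109 and 127 CPM with IFNβ and 105, 115 and 110 CPM with STING agonist. IFNγ libraries lay below all others, and the change was -0.38 ± 0.071 (adjusted p = 8.53e-05). In B16F10 the values were 12.3, 12.5 and 12.9 CPM with vehicle and 16.8, 15.6 and 12.5 CPM with IFNγ, which overlapped, and the log2 difference of 0.25 ± 0.106 was not called (adjusted p = 0.0722), though it was without IFNγ replicate 3 (adjusted p = 0.0133). The lines differed in this effect by a log2 of -0.65 ± 0.12 (adjusted p = 0.000162). The promoter of Ctsc is the one with a gamma-activated site shown above, letters that 8.30% of all promoters hold. A part of this site in the change was not tested, and the promoter of Ctsh was not searched.

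In 6694c2, where IFNγ lowered Ctsc, Ctsh and Ctsl, 7.89% of all tested genes rose and 5.66% fell with it. Of 8 tested macrophage and leukocyte markers there, 1 rose with IFNγ, 1 fell and 6 were not called. The one that rose was Cd68, a lysosomal glycoprotein of macrophages, from 0.886 ± 0.281 to 1.83 ± 0.236 CPM (log2 1.03 ± 0.326, adjusted p = 0.0267), and the one that fell was Mrc1, the mannose receptor (log2 -0.77 ± 0.0665, adjusted p = 1.46e-12). The sum of the 8 tested markers was 220 to 230 CPM with vehicle and 124 to 146 CPM with IFNγ. Nearly all of it was Mrc1, at a mean of 223 and 129 CPM, whereas the pan-leukocyte marker Ptprc was at 1.17 to 1.75 and 1.12 to 1.78 CPM and the macrophage markers Adgre1, Csf1r and Lyz2 stayed under 0.31 CPM in each of these libraries. Fcgr1 was at 0 in all of them. The part of these transcripts in the result was not tested.

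Ctsd, the aspartic protease that heads the cathepsins of B16F10, fell there with both interferons. It was at 1004, 965 and 985 CPM with vehicle, 802, 793 and 814 CPM with IFNγ, 834, 891 and 937 CPM with IFNβ and 1048, 1063 and 1049 CPM with STING agonist. Interferon libraries lay below the vehicle libraries, with changes of -0.30 ± 0.0493 (adjusted p = 6.06e-08) for IFNγ and -0.14 ± 0.0492 (adjusted p = 0.0197) for IFNβ. STING agonist libraries lay above them, but the difference of 0.09 ± 0.0492 was not called (adjusted p = 0.434). In 6694c2 the vehicle libraries at 193, 195 and 209 CPM overlapped those with IFNγ (220, 212 and 202 CPM), IFNβ (195, 180 and 211 CPM) and STING agonist (187, 208 and 197 CPM). The IFNγ effects differed between the lines by a log2 of 0.38 ± 0.0844 (adjusted p = 0.00165). Of 11 melanocyte markers in B16F10, 7 were lower and 0 higher with IFNγ, where 10.8% of all tested genes were lower. With IFNβ, 6 were lower and 1 higher, where 11.2% of all tested genes were lower. The markers summed to 16150 to 16493 CPM with IFNγ and 15723 to 17067 CPM with IFNβ against 19676 to 19886 CPM with vehicle. Their part in the result was not tested. The fall of Ctsd with IFNβ was not called without vehicle replicate 1 (adjusted p = 0.0777) or 3 (0.068) or IFNβ replicate 1 (0.118). Nor was it called when scaled by library size only (0.0688) or in a fit of all 24 libraries (0.066). Gm49369, which shares 808 exon bases with Ctsd on the same strand, had 0 to 3 reads in each library. How reads in shared bases were assigned is not given, so this low count does not show whether Ctsd lost reads there.

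Ctsb, an abundant protease with endo- and exopeptidase activity, was raised by interferon in both lines. In B16F10 it was at 1256, 1223 and 1307 CPM with vehicle, 1473, 1494 and 1448 CPM with IFNγ, 1459, 1478 and 1704 CPM with IFNβ and 1407, 1457 and 1374 CPM with STING agonist. No treated library overlapped the vehicle libraries, and the log2 rises were 0.22 ± 0.0484 (adjusted p = 7.87e-05), 0.30 ± 0.0484 (adjusted p = 2.24e-08) and 0.16 ± 0.0484 (adjusted p = 0.0434). The rise with STING agonist was close to the threshold and was not called by DESeq2 (adjusted p = 0.0554), with the filterByExpr count minimum of edgeR (0.076) or in a fit of all 24 libraries (0.171), nor without vehicle replicate 1 (0.185) or 2 (0.254) or any of the STING agonist replicates 1 (0.122), 2 (0.294) and 3 (0.0591). In 6694c2 it was at 370, 369 and 384 CPM with vehicle and 516, 526 and 575 CPM with IFNβ, a rise of 0.56 ± 0.0627 (adjusted p = 1.97e-09). This was the largest called rise among the 10 genes in 6694c2, and it kept its call under every alternative. With IFNγ the libraries at 404, 407 and 404 CPM were above vehicle, but the difference of 0.13 ± 0.0627 was not called (adjusted p = 0.209), and STING agonist libraries (387, 390 and 377 CPM) overlapped vehicle. The IFNβ effect was not called as different between the lines (a log2 difference of 0.23 ± 0.0808, 95% interval 0.07 to 0.39, adjusted p = 0.0532). It was called in 10 of 20 alternatives, DESeq2 among them (adjusted p down to 0.0014 over the alternatives). The exons of Ctsb share 774 bases with Fdft1 on the opposite strand. Fdft1 had 1140 to 4657 reads per library, at most 40.9% of those of Ctsb in the same library.

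Ctsz and Ctsa rose in 6694c2 and were not called in B16F10. Ctsz was at 69.0, 78.1 and 73.9 CPM with vehicle in 6694c2, 84.6, 89.1 and 86.9 CPM with IFNγ and 81.1, 89.4 and 90.8 CPM with IFNβ, above vehicle in all 6 interferon libraries. The log2 rises were 0.25 ± 0.071 (adjusted p = 0.0106) and 0.28 ± 0.0705 (adjusted p = 0.00349), the former not called without vehicle replicate 1 (adjusted p = 0.0565). In B16F10 the vehicle libraries at 468, 472 and 470 CPM stood beside 458, 444 and 448 CPM with IFNγ and 423, 449 and 529 CPM with IFNβ. The difference between the lines in the IFNγ effect was 0.30 ± 0.0919 (adjusted p = 0.0288). It was lost without 6694c2 vehicle replicate 1 (0.0869) or 3 (0.0507) or IFNγ replicate 2 (0.0638) or 3 (0.0537). For IFNβ the difference was 0.25 ± 0.0915 (adjusted p = 0.0677) and was not called, though 9 of 20 alternatives called it. Ctsa, which also protects other lysosomal glycosidases, was at 64.6, 65.1 and 64.9 CPM with vehicle and 75, 75.2 and 73.8 CPM with IFNγ in 6694c2. These did not overlap, and the log2 rise was 0.22 ± 0.07 (adjusted p = 0.0297), but leaving out any of the 6 libraries took it past the threshold (adjusted p = 0.0509 to 0.0786), as did scaling by library size only (0.0817). In B16F10 Ctsa was at 257, 252 and 262 CPM with vehicle and 281, 280 and 272 CPM with IFNγ, a difference of 0.11 ± 0.0533 that was not called (adjusted p = 0.14). A difference between the lines in this effect was not called (0.09 ± 0.082, 95% interval -0.07 to 0.25, adjusted p = 0.614). Ctsa shares 324 exon bases with Neurl2 and 495 with Pltp, and Ctsz 10 with Nelfcd, all on the opposite strand. Per library, Neurl2 had 2 to 160 reads, Pltp 12 to 2284 and Nelfcd 878 to 1969. These were at most 2.79% and 30.6% of the reads of Ctsa and 95.7% of those of Ctsz in the same library.

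Ctss, the endopeptidase that completes invariant chain removal in antigen-presenting cells (chr3:95526786-95556403), was low in every library, with 7 to 63 reads. In B16F10 it was at 0.335, 1.20 and 1.76 CPM with vehicle and 2.31, 2.63 and 1.54 CPM with IFNγ. The groups overlapped, and the spread of the vehicle libraries was wide. The log2 rise of 0.93 ± 0.29 was called (adjusted p = 0.00877) but rested on single libraries, since without vehicle replicate 1 it was 0.53 (adjusted p = 0.252), without IFNγ replicate 2 it was 0.77 (adjusted p = 0.07), and DESeq2 gave an adjusted p of 0.0899. With IFNβ (2.26, 1.11 and 1.09 CPM) and STING agonist (1.43, 1.56 and 1.54 CPM) it was not called, and in 6694c2 vehicle (1.58, 1.17 and 1.28 CPM) overlapped IFNγ (1.72, 0.552 and 1.22 CPM), IFNβ (1.60, 1.27 and 1.81 CPM) and STING agonist (1.3, 1.59 and 1.16 CPM). The promoter with the response element GAAACCGAAA belongs to a gene whose highest value was 2.63 CPM. Genes of B cells, which use Ctss in antigen presentation, were also counted in these libraries. The sum of 6 B-cell genes chosen after the values were seen (Cd79a, Cd79b, Ighm, Igkc, Ms4a1 and Pax5) was 12.2 to 25.3 CPM with vehicle in B16F10. It was 30.1 to 40.1 CPM there with IFNγ, 17.8 to 32.1 CPM with IFNβ and 21.2 to 29.8 CPM with STING agonist. The sums with IFNβ and STING agonist overlapped those with vehicle. Taken singly, Cd79b, Ms4a1 and Pax5 overlapped between vehicle and IFNγ in B16F10, and Cd79a, Ighm and Igkc did not. How often the libraries of other genes separate in this way was not counted. None of the 6 B-cell genes was at 0 in any of the 24 libraries. In 6694c2 the sum was 26.2 to 33.3 CPM with vehicle and 57.5 to 66.1 CPM with IFNβ. There the gain was in Pax5, a transcription factor of B cells, at 1.06 to 1.77 CPM with vehicle and 30.5 to 38.6 CPM with IFNβ. The other 5 genes summed to 25.2 to 32.1 CPM with vehicle and 18.8 to 35.1 CPM with IFNβ in 6694c2, which overlapped, and to 11.7 to 24.0 CPM with vehicle and 28.2 to 37.9 CPM with IFNγ in B16F10, which did not. Ptprc was at 0.762 to 1.84 CPM with vehicle and 1.03 to 1.59 CPM with IFNγ in B16F10. Of the 8 tested macrophage and leukocyte markers, 0 rose, 1 fell and 7 were not called with IFNγ in B16F10. Among all tested genes 12% rose and 10.8% fell in that comparison. The part of such transcripts in the rise of Ctss was not tested.

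**Figure D5:**
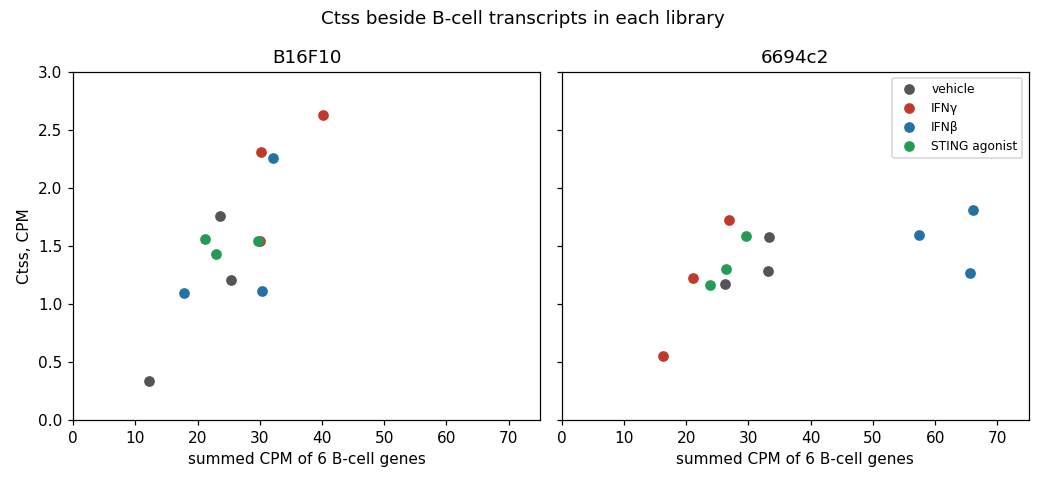
Ctss against the sum of 6 B-cell genes, both in TMM-scaled CPM, one point per library, with a panel for each line and a colour for each treatment. The IFNγ libraries of B16F10 lie at 30.1 to 40.1 CPM of B-cell genes and 1.54 to 2.63 CPM of Ctss, and the IFNβ libraries of 6694c2 at 57.5 to 66.1 CPM and 1.27 to 1.81 CPM, of which Pax5 alone makes up 30.5 to 38.6 CPM and the other 5 B-cell genes 18.8 to 35.1 CPM.

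The interferons were also compared directly with each other within each line. In 6694c2, 4 cathepsins were higher with IFNβ than with IFNγ (13.9% of all genes called, 7.3% higher and 6.57% lower). Ctsc was higher by a log2 of 0.54 ± 0.0703 (adjusted p = 7.57e-08), Ctsb by 0.43 ± 0.0625 (adjusted p = 8.86e-07), Ctsl by 0.41 ± 0.0698 (adjusted p = 1.84e-05) and Ctsh by 0.32 ± 0.0764 (adjusted p = 0.00199), and the 3 libraries of each interferon did not overlap. In B16F10 the call was Ctsd alone, higher by 0.15 ± 0.0493 with IFNβ (adjusted p = 0.0162, 14.5% of all genes called, 6.65% higher and 7.85% lower). It was lost without IFNγ replicate 1 (adjusted p = 0.0767) or IFNβ replicate 2 (0.0652) or 3 (0.0887), and in a fit of all 24 libraries (0.123).

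The genes around the cathepsins were read from the lists given here by name. The inhibitor list holds cystatins and serpins, not all of which are best known for inhibiting cathepsins. Of its 8 tested genes, 3 rose and 1 fell with IFNγ in B16F10 and 4 rose and 1 fell in 6694c2. With IFNβ, 2 rose and 1 fell in B16F10, and 2 rose and 0 fell in 6694c2. Over all tested genes, 12% rose and 10.8% fell with IFNγ in B16F10, and 7.89% and 5.66% in 6694c2. With IFNβ these shares were 12.7% and 11.2% in B16F10 and 10.4% and 7.86% in 6694c2. Serpinb9, which is best known as an inhibitor of granzyme B, went from 6.32 ± 0.755 CPM with vehicle to 48.4 ± 2.42 CPM with IFNγ and 18.5 ± 2.26 CPM with IFNβ in B16F10, and from 19.8 ± 1.03 CPM to 113 ± 4.78 CPM and 186 ± 9.61 CPM in 6694c2. Cst3 (cystatin C), an abundant secreted inhibitor of cysteine cathepsins, rose in B16F10 from 573 ± 23 CPM to 989 ± 40.1 CPM with IFNγ (log2 0.78 ± 0.0513, adjusted p = 3.20e-40) and 734 ± 85.8 CPM with IFNβ. Serpina3g went from 0.331 ± 0.270 CPM to 56.2 ± 2.65 CPM with IFNγ in 6694c2 (log2 7.40 ± 0.192, adjusted p = 5.34e-31), and in B16F10 it was at 0.281 to 0.821 CPM with vehicle and 0.281 to 0.440 CPM with IFNγ. The difference of the lines in this effect was 7.71 ± 0.616 on the log2 scale (adjusted p = 1.67e-12).

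Ctse, an aspartic protease of epithelia was at 182 ± 12.9 CPM in 6694c2 with vehicle, with a log2 change of -0.37 with IFNγ (adjusted p = 9.20e-05) and of -0.21 with IFNβ (adjusted p = 0.0243), and was at 0.144 to 0.361 CPM in B16F10 with vehicle. Its called rise in B16F10 with STING agonist (log2 2.23 ± 0.511, adjusted p = 0.00131), to 1.14 ± 0.204 CPM, stood beside 1.63 CPM from the trace of 6694c2 transcripts in those libraries.

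Among 28 lysosomal enzymes and their partners, 13 rose and 4 fell with IFNγ in B16F10, 13 rose and 2 fell with IFNβ, and in 6694c2 the counts were 4 and 1 with IFNγ and 6 and 1 with IFNβ. Over all tested genes the shares that rose were also higher in B16F10, at 12% with IFNγ and 12.7% with IFNβ against 7.89% and 10.4% in 6694c2, and those that fell were 10.8% and 11.2% against 5.66% and 7.86%. Whether the list differed between the lines was not tested. Gla (alpha-galactosidase A) rose in B16F10 from 32.7 ± 2.57 to 46.9 ± 0.967 CPM with IFNγ, and Ids (iduronate sulfatase) fell in 6694c2 from 28.5 ± 2.84 to 19.0 ± 1.45 CPM with IFNγ and 15.0 ± 0.739 CPM with IFNβ. Of 20 lysosomal membrane and acidification genes, 7 rose and 2 fell with IFNγ in B16F10 and 9 rose and 5 fell with IFNβ, against 4 and 7 that rose in 6694c2. Scarb2, the receptor that carries glucocerebrosidase to the lysosome, and Laptm4a rose with both interferons in both lines, Scarb2 from 89.8 ± 1.47 to 146 ± 6.17 CPM with IFNγ in B16F10 and from 149 ± 5.67 to 208 ± 13.2 CPM in 6694c2. Of 14 sorting receptors and lysosomal transcription factors, 2 rose and 4 fell with IFNγ in B16F10, among them Igf2r, the cation-independent mannose 6-phosphate receptor (-0.42 ± 0.0564, adjusted p = 1.59e-11), and Sort1, a sorting receptor (-0.44 ± 0.0542, adjusted p = 2.52e-13). In 6694c2, 2 rose and 1 fell with IFNγ, Igf2r being higher there by 0.35 ± 0.112 (adjusted p = 0.0297), and the lines differed in this effect by 0.75 ± 0.142 (adjusted p = 0.000221).

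With vehicle most lysosomal genes were lower in 6694c2, as were Ctsa, Ctsb, Ctsd, Ctsf and Ctsz and unlike Ctsc, Ctsh and Ctsl. Of the 28 enzymes and partners, 22 were lower and 2 higher in 6694c2 than in B16F10, with a median log2 difference of -0.97 beside -0.01 over all tested genes. Of the 20 membrane and acidification genes 17 were lower and 1 higher (median log2 difference -1.26). Of the 14 sorting genes and transcription factors 10 were lower and 1 higher (median -0.72). Over all tested genes 29.3% were lower and 28.7% higher. Mitf, the melanocyte relative of TFEB, was lower by a log2 difference of -6.24 ± 0.122. Of 8 genes of MHC class II presentation, in which cathepsins act on the invariant chain, 7 rose with IFNγ in each line (12% of all tested genes in B16F10 and 7.89% in 6694c2), led in B16F10 by the class II transactivator Ciita (0.590 ± 0.393 to 10.1 ± 1.35 CPM) and in 6694c2 by H2-DMb1 (0.353 ± 0.187 to 26.5 ± 1.73 CPM). The eighth gene, H2-DMb2, named after its values were seen, was not called in B16F10 and fell in 6694c2 from 2.77 ± 0.422 to 1.49 ± 0.406 CPM (log2 -0.85 ± 0.257, adjusted p = 0.0185).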

How the data were processed

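Bulk RNA libraries of 2 mouse cell lines were read as raw read counts per gene, deposited by the authors. Per the labels and the methods, paired-end reads were trimmed with cutadapt 1.14, aligned with STAR 2.7.9a (mm10 in the submitters' processing notes) and counted with Rsubread, and the files list gene lengths in bases. Annotation release, strandedness and the handling of multi-mapping reads are not given in the sources used here. Genes with at least 10 reads over the 24 libraries were fitted with edgeR 4.0.16 (R 4.3.3, limma 3.58.1): TMM scaling, quasi-likelihood tests and Benjamini-Hochberg adjustment over all 21138 genes. Treatments were tested within the 12 libraries of a line, and lines and differences of effects over all 24. A gene was called at an adjusted p under 0.05. The script was tested on simulated data. RPKM divides TMM-scaled CPM by gene length. Genes specific to a line had at least 50 CPM there and under 2% of that in the other, with vehicle.

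The 10 cathepsins are named throughout, and of each other list at most the 3 called genes with the largest change per treatment. Lists of inhibitors, lysosomal and marker genes, like the members, were chosen with earlier results of these data known. Ctsh against Ctso and the B-cell genes were set side by side after their values were seen. No member met the rule for naming genes of similar pattern (a called change over 2-fold). Alternatives were other scalings, count minimums, a robust fit, DESeq2 1.42.0, a replicate block and leaving out each library. If the libraries of a group are not separate cultures, p-values measure only the spread between these samples, which may be technical. Depth limits Ctsf in 6694c2, Ctsk and Ctss. Per the labels, 6 single-cell samples complete the series and are not analysed here. A part of the description of 6694c2 and a gene of the B-cell list are not reported here.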

Additional observations from a re-analysis of the deposited data

Results flagged for a closer look

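The following 6 results stood out because an interferon changed a cathepsin differently in the lines, by a test of the difference of the effects (edgeR, 24 libraries, 3 per group, adjusted over 21138 genes). With IFNγ, the log2 change in 6694c2 minus that in B16F10 was -1.21 ± 0.112 (SE) for Ctsh (adjusted p = 9.98e-11), -0.65 ± 0.12 for Ctsc (adjusted p = 0.000162), -0.53 ± 0.0903 for Ctsl (adjusted p = 4.17e-05), 0.38 ± 0.0844 for Ctsd (adjusted p = 0.00165) and 0.30 ± 0.0919 for Ctsz (adjusted p = 0.0288). With IFNβ it was -0.92 ± 0.111 for Ctsh (adjusted p = 6.03e-08). Ctsh was called with opposite signs in the lines for both interferons, and Ctsl for IFNγ in the fits within a line, though its rise in B16F10 was not called in the fit of all 24 libraries (adjusted p = 0.0731) or with library size only (adjusted p = 0.07). The other 3 IFNγ results combine a called change in 1 line with a change in the other that was not called. The fall of Ctsh with IFNβ in 6694c2 lost its call in 4 of 14 alternatives (adjusted p up to 0.238). The IFNγ difference for Ctsz lost its call in 4 of 20 (adjusted p up to 0.0869).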

How the results depend on the processing

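Of 38 called results for single cathepsins, 29 kept their direction and their side of the threshold under every alternative, and none of the 38 reversed. Over 568 such checks 526 kept the call, and 9 of 82 results that were not called were called by some alternative. The cause was not tested for any of the changes below. The number of called cathepsins in B16F10 with STING agonist (2) was 1 with the filterByExpr minimum, with DESeq2 and in a fit of all 24 libraries, and 1 to 2 with a library left out. With IFNβ against IFNγ in B16F10 (1) it was 3 with library size only, 0 in the fit of all 24 libraries, and 0 to 2 with a library left out. In 6694c2 with IFNγ (5) it was 3 to 4 with a library left out. For the difference of the IFNβ effects (1) it was 2 with RLE size factors and with library size only, 3 with the filterByExpr minimum, the robust fit and DESeq2, and 1 to 3 with a library left out, the added genes coming from Ctsb, Ctsl and Ctsz. With library size only, summed cathepsin levels became 3369, 3364, 3714 and 3699 CPM in B16F10 and 1182, 1106, 1326 and 1212 CPM in 6694c2 (vehicle, IFNγ, IFNβ, STING agonist), and with RLE factors 3169 CPM in B16F10 with IFNγ. That scaling moved the median of all genes by over 0.1 for the vehicle comparison (to -0.19) and the difference of IFNβ effects (to -0.10). With a limit of 0.5% for genes specific to a line, the shares were 0.163% in B16F10 vehicle and 0.413%, 0.201% and 0.133% in 6694c2 with vehicle, IFNβ and STING agonist.

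Same-numbered replicates did not deviate together (r from -0.146 to 0.185 in B16F10 and -0.276 to 0.243 in 6694c2), and the replicate block kept the number of called cathepsins in all 12 comparisons, at 5 for IFNγ in each line. Over all genes, calls in 6694c2 with STING agonist went from 76 to 126 with the block, to 155 with no minimum, to 44 with the filterByExpr minimum, to 42 without STING agonist replicate 1 and to 49 without STING agonist replicate 3 or vehicle replicate 3, those in B16F10 with STING agonist from 732 to 415 without STING agonist replicate 3, to 437 and 477 without vehicle replicates 1 and 2, and to 459 in the fit of all 24 libraries, and those of the difference of STING agonist effects from 449 to 793 with the groups compared alone. With library size only, the share of higher calls went from 55.7% to 70.8% for STING agonist and from 45.9% to 64.7% for IFNβ against IFNγ in B16F10, from 56.8% to 42.3% for IFNβ in 6694c2, and from 51.1% to 35.2% for the difference of IFNβ effects.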
